A study of Mus musculus with 18 samples.

Results

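Cytosolic sulfotransferases are enzymes that transfer a sulfonate group onto small molecules. The 10 genes described here are Sult1a1, Sult1b1, Sult1c2, Sult1d1, Sult1e1, Sult2a7, Sult2a8, Sult3a1, Sult3a2 and Sult5a1. They were taken by symbol after the Ensembl gene identifiers of the liver count tables were matched to GENCODE M21, and are 10 of 21 protein-coding Sult genes among 55536 identifiers. Of the 10, 9 passed the filter on low counts and were tested with 14835 genes in all. The remaining one, Sult5a1, held 0 counts in every liver.

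RNA was sequenced from livers of female C57BL/6 mice, 3 per group, 18 in all. Each mouse received by gavage 100 µg/kg TCDD, a long-lived dioxin that binds the aryl hydrocarbon receptor (AHR), or the peanut oil vehicle, every 4 days over 92 days. The 6 groups were dHep mice (AhRΔHep, Ahr deleted in hepatocytes) with TCDD or vehicle, dHSC mice (AhRΔHSC, Ahr deleted in hepatic stellate cells) with TCDD or vehicle, and mice labelled WT with TCDD or vehicle. The series describes the WT mice as AhRfl/fl, so that they carry the floxed allele too. The Cre driver of each deletion is not given in the sources used here. A liver library holds all cell types at once. Fewer cells of a type and less RNA per cell therefore cannot be told apart. The comparisons ask whether chronic TCDD exposure changed the level of each gene, and whether that change differed when hepatocytes or stellate cells lacked AHR.

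Sulfonation is a conjugation reaction that generally makes steroids, bile acids, phenols, amines and catechols more water-soluble and less active. All cytosolic sulfotransferases draw the sulfonate from the same donor, PAPS (phosphoadenosine phosphosulfate), which the PAPS synthases Papss1 and Papss2 make. In rodent liver several of these genes differ between the sexes under the control of pituitary growth hormone, and some Sult2a and Sult3a genes are known for higher levels in female mice. All livers here were female, so sex differences of the members were not read. AHR is a ligand-activated transcription factor that, once bound by dioxin, activates genes such as Cyp1a1 through DNA elements with the core GCGTG.

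Promoter sequences of RefSeq (GRCm38.p6) were matched by symbol, and 9 of the 10 genes had 1 or more. The 250 bases before the transcription start are shown for Sult3a1, Sult3a2 and Sult2a8, members of the families with the most negative TCDD changes in WT livers, and for Sult1d1, whose change there was the smallest of the 9 tested members. Capitals mark a match to GCGTG on either strand or to TTCNNNGAA, the element bound by STAT5, the transcription factor that acts downstream of growth hormone. The Sult3a1 stretch is chr10:33857472-33857721 on the plus strand, the Sult3a2 stretch chr10:33782116-33782365 on the minus strand, the Sult2a8 stretch chr7:14446588-14446837 on the minus strand, and the Sult1d1 stretch chr5:87569007-87569256 on the minus strand, each written 5′ to 3′.
Sult3a1: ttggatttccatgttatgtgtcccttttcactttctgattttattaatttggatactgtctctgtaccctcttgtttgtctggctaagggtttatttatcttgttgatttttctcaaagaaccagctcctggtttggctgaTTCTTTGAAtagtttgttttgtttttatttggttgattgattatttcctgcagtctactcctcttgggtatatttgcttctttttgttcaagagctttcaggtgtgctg
Sult3a2: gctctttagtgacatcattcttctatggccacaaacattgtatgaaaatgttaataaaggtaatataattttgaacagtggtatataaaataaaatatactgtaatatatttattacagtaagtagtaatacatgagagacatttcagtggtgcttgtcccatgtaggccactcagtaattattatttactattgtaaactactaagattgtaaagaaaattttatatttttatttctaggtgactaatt
Sult2a8: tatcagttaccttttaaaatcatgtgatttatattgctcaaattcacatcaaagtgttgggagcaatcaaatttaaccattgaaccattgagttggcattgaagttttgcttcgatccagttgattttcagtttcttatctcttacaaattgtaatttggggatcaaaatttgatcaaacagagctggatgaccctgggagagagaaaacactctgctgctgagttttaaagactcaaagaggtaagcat
Sult1d1: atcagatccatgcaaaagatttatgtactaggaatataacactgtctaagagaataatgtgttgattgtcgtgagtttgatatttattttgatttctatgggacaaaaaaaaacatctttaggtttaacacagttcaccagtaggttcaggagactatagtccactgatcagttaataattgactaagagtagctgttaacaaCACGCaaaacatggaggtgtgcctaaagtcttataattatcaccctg
In windows that ran from 250 bases before to 50 bases after the start, 300 in all, GCGTG stood in 32.4% of 32851 promoters of the table, and TTCNNNGAA in 8.3%. Among the members GCGTG was found in Sult1d1, where it reads CACGC on the printed strand 47 bases before the start, and in 1 of the 2 promoters of Sult1b1, 196 bases before the start. TTCNNNGAA was found in Sult3a1, 109 bases before the start. The letters of either motif were not in the windows of Sult3a2 and Sult2a8, which describes these windows only. The RefSeq starts used for Sult3a2, Sult2a8 and Sult1d1 lie inside their GENCODE M21 spans, which begin at 33786704, 14446769 and 87569027 on the minus strand. The windows of Sult2a8 and Sult1d1 reach past that outer start. The bases before the outer start of Sult3a2 were not searched. A second RefSeq promoter of Sult2a8 (14438502 to 14438801) is not printed and held neither motif.

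The libraries held 12706490 to 27240877 counts each. Counts outside protein-coding genes made up 2.20 to 4.25% of the total in 5 libraries, against at most 1.76% in the other 13, and these 5 (dHep TCDD mouse 16, dHep vehicle mice 9 and 15, dHSC TCDD mouse 18, dHSC vehicle mouse 17) lay at 62.1 to 126 on the first principal component, which took 38.3% of the variance. The next was WT TCDD mouse 8 at 36.8, and the other 12 lay at or below −11.8. The intestine markers summed to 21.5 to 111 CPM in these 5 libraries and to 2.95 to 9.10 CPM in the other 13; their part in the results was not tested. In dHSC TCDD mouse 18, 28.4% of counts were mitochondrial. Below, calls among the sulfotransferases, the gene lists and the markers that rest on the 5 are also given without them. The hepatocyte markers were high in all 6 groups, none of the 8 in the files was at 0, and their summed level was 50554 to 91230 CPM (counts scaled to library size after TMM normalization) in WT TCDD and 91627 to 156150 CPM in WT vehicle livers. As a check of exposure, Cyp1a1 averaged 6430.2 ± 1689.8 CPM in WT TCDD and 15.4 ± 15.5 CPM in WT vehicle livers, 307 ± 25.4 CPM in dHep TCDD and 63.9 ± 33.2 CPM in dHep vehicle livers, and 4503 ± 1780.1 CPM in dHSC TCDD and 11.7 ± 7.33 CPM in dHSC vehicle livers (SD, n = 3 each). Ahr had 23.2 to 94.9 CPM across the 18 livers, with no group called different from another in the comparisons made. Counts over the whole gene do not show whether the floxed part was removed.

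In WT livers 6 of the 9 tested genes fell with TCDD, and Sult1b1, Sult1d1 and Sult1e1 did not pass the test (edgeR quasi-likelihood test, adjusted p under 0.05, here and below). Over all genes tested, 1.95% were called lower and 3.43% higher, 5.38% in either direction. The median log2 change of the 9 genes was −2.87, beside −0.02 over all genes. In dHSC livers 5 of 9 fell, where 0.843% of all genes were called lower and 2.55% in either direction, and the median was −1.96. In dHep livers none of 9 passed, where 0.0404% of all genes were called lower and 0.027% higher, 0.0674% in either direction, and the median was −0.84. At an unadjusted p under 0.05 there were 3 of 9 in dHep livers (Sult2a7, Sult2a8 and Sult3a2, all lower), beside 994 of 14835 genes. DESeq2 called 0 of the 9 there and 84 genes in all. Without the 5 libraries that lay apart, 2 dHep TCDD livers and 1 dHep vehicle liver remained, so no count of calls is given for this comparison. Counts for differences between dHep and another genotype without the 5, given below, rest on the same lone vehicle liver.

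**Figure D1:**
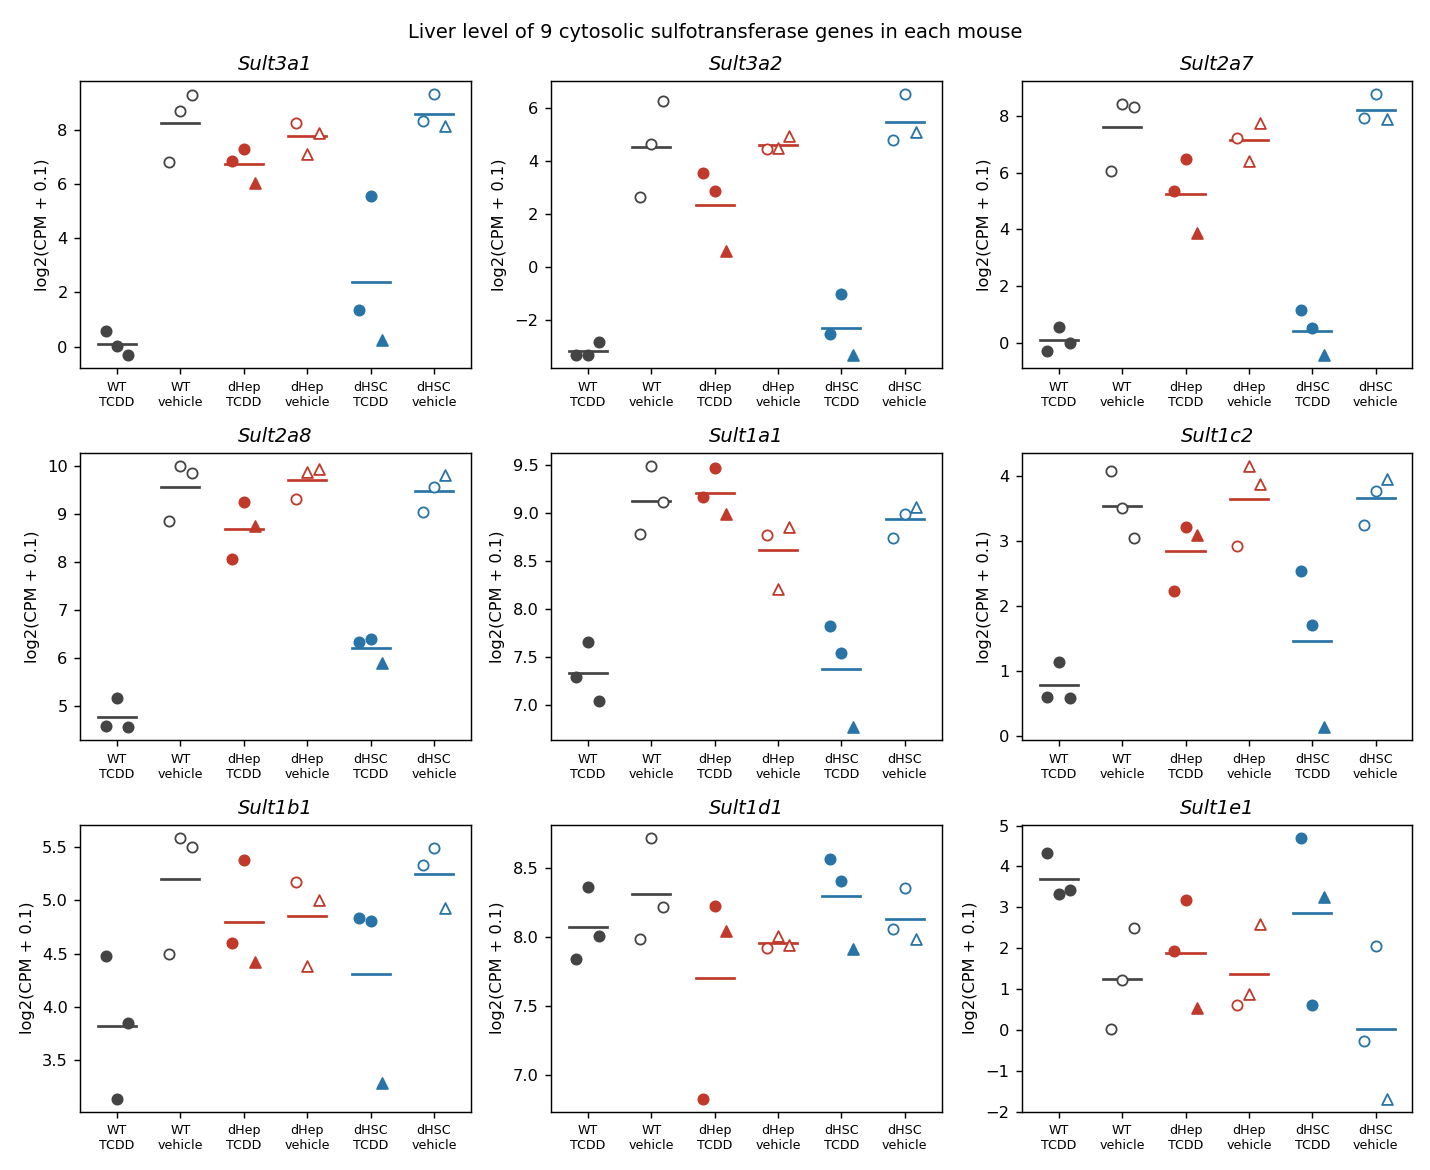
Level of each of the 9 tested sulfotransferase genes, as log2(CPM + 0.1), in every liver. Filled symbols are TCDD and open symbols vehicle livers, triangles are the 5 libraries with over 2% of counts outside protein-coding genes, and lines are group means of the log2 values. WT TCDD livers lie below WT vehicle livers for Sult3a1, Sult3a2, Sult2a7, Sult2a8, Sult1a1, Sult1c2 and Sult1b1, as for 11.4% of all genes. The dHep TCDD livers overlap dHep vehicle livers for Sult3a1 and Sult2a7. They lie below them for Sult3a2 and Sult2a8, as for 5.03% of all genes.

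Sult3a1 and Sult3a2 encode the family that sulfonates amines. Sult3a1 (ENSMUSG00000069668, GRCm38 chromosome 10, 33857721 to 33879532, plus strand) had 1.37, 0.911 and 0.703 CPM in WT TCDD mice 2, 8 and 14, against 113, 414 and 619 CPM in WT vehicle mice 1, 7 and 13. All 3 WT TCDD livers were far below the lowest vehicle liver. The log2 change was −8.57 ± 1.30 (SE), 381-fold lower, with an adjusted p of 0.000821. In dHSC livers Sult3a1 had 2.43, 47.2 and 1.07 CPM in TCDD mice 6, 12 and 18, against 318, 640 and 285 CPM in vehicle mice 5, 11 and 17. The groups did not overlap, but mouse 12 stood well above the other two TCDD livers. The log2 change of −4.61 ± 1.07 (adjusted p = 0.03) was −7.89 without mouse 12 (adjusted p = 0.000303), and it lost its call without vehicle mouse 5, TCDD mouse 6, vehicle mouse 11 or TCDD mouse 18 (adjusted p 0.0547 to 0.105) or without the 5 libraries that lay apart (−4.26, adjusted p = 0.109). In dHep livers it had 115, 157 and 66.0 CPM in TCDD mice 4, 10 and 16, against 309, 139 and 236 CPM in vehicle mice 3, 9 and 15, and these groups overlapped. The log2 change there was −1.02 ± 0.93 (adjusted p = 0.883), with an interval of −2.99 to 0.96.

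Sult3a2 (ENSMUSG00000090298, chromosome 10, 33766424 to 33786704, minus strand) all but vanished from the counts with TCDD in WT livers. It had 0, 0 and 0.0413 CPM in WT TCDD mice 2, 8 and 14, against 6.13, 25.2 and 76.9 CPM in WT vehicle mice 1, 7 and 13. The WT TCDD livers shared 1 count, against 1896 in WT vehicle livers, so the vehicle-over-TCDD ratio of 2287 had a 95% counting interval of 410.01 to 90387, which covers counting error only. The fitted change passed the test (adjusted p = 0.000284), though its size depends on the prior count of the fit. In dHSC livers the values were 0.0738, 0.395 and 0 CPM with TCDD, 9 counts in all, against 27.8, 92.3 and 34.1 CPM with vehicle, 2352 counts, a vehicle-over-TCDD ratio of 250.1 with an interval of 132 to 548 (adjusted p = 0.00121, and 0.0149 without the 5 libraries that lay apart). Mouse 12, the highest for Sult3a1 among dHSC TCDD livers, was the highest for Sult3a2 too. In dHep livers the gene stayed measurable, at 11.8, 7.16 and 1.43 CPM with TCDD, against 21.7, 22.5 and 30.4 CPM with vehicle. These groups did not overlap, as for 5.03% of all genes on the lower side, and the log2 change of −1.86 ± 0.81 did not pass (adjusted p = 0.702, unadjusted p = 0.0361). The transcripts of the 2 genes are 88.7% identical, and 6.2% of the 50-base stretches of Sult3a1 occur in Sult3a2, so some of their reads may have been split between them. With their counts summed, the change was −8.68 in WT and −4.76 in dHSC livers (adjusted p = 0.0259 for dHSC).

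Sult2a7 and Sult2a8 belong to the hydroxysteroid and bile acid family, and Sult2a8 is known to sulfonate bile acids in mouse liver. Sult2a7 (ENSMUSG00000094156, chromosome 7, 14465051 to 14494230, minus strand) had 0.733, 1.37 and 0.910 CPM in WT TCDD mice 2, 8 and 14, against 67.1, 340 and 316 CPM in WT vehicle mice 1, 7 and 13. It had 2.14, 1.33 and 0.645 CPM in dHSC TCDD mice 6, 12 and 18, against 239.9, 434 and 238 CPM in dHSC vehicle mice 5, 11 and 17. In both genotypes each TCDD liver was at a few percent or less of the lowest vehicle liver. The log2 change was −7.91 ± 0.85 in WT (240.5-fold lower, adjusted p = 4.99e-05) and −7.79 ± 0.85 in dHSC livers (221-fold lower, adjusted p = 8.41e-05). In dHep livers Sult2a7 had 41.2, 89.8 and 14.6 CPM with TCDD, against 150.2, 85.6 and 214 CPM with vehicle. TCDD mouse 10 overlapped vehicle mouse 9, and the change of −1.63 ± 0.64 did not pass (adjusted p = 0.646, unadjusted p = 0.021).

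Sult2a8 (ENSMUSG00000030378, chromosome 7, 14410686 to 14446769, minus strand) kept a measurable level in every liver. It had 23.9, 36.2 and 23.7 CPM in WT TCDD mice 2, 8 and 14, against 459, 1021 and 918 CPM in WT vehicle mice 1, 7 and 13. It had 80.8, 84.8 and 59.5 CPM in dHSC TCDD mice 6, 12 and 18, against 529, 748 and 894 CPM in dHSC vehicle mice 5, 11 and 17. The TCDD livers of both genotypes formed narrow groups well below their vehicle livers, with changes of −4.84 ± 0.42 in WT (28.6-fold lower, adjusted p = 8.42e-06) and −3.27 ± 0.39 in dHSC livers (9.64-fold lower, adjusted p = 0.000216). Sult2a8 and Sult2a7 kept their dHSC calls without the 5 libraries that lay apart, at −2.94 (adjusted p = 0.0116) and −7.62 (adjusted p = 0.00167). In dHep livers it had 266, 606 and 427 CPM in TCDD mice 4, 10 and 16, against 632, 938 and 970.4 CPM in vehicle mice 3, 9 and 15. The dHep groups did not overlap, as for 5.03% of all genes on the lower side. The change of −0.97 ± 0.36, 1.96-fold lower, did not pass (adjusted p = 0.623, unadjusted p = 0.0169).

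The other genes of the Sult2a group lie next to these on chromosome 7, in the order Sult2a5, Sult2a2, Sult2a1, Sult2a4, Sult2a3, Sult2a6, Sult2a8 and Sult2a7. Sult2a8 and Sult2a7 end the row. Sult2a1 and Sult2a2, singled out after their values were seen, had log2 differences of −0.08 ± 0.67 and 0.60 ± 0.59 with TCDD in WT livers (adjusted p = 0.986 and 0.766). Sult2a3, the last tested gene before Sult2a8 in that order, had −2.10 ± 1.42 there (adjusted p = 0.552). Of the 11 Sult genes outside the listed 10, 6 were tested, and none was called with TCDD in any of the 3 genotypes (edgeR). At an unadjusted p under 0.05 there were 0 in WT, 1 in dHep and 0 in dHSC livers, and DESeq2 called 0 in each. The median log2 change of these 6 was 0.82 in WT, 0.34 in dHep and −0.03 in dHSC livers. Sult2a1 and Sult2a2 share much of their sequence (97.6% identity, 62.1% of the 50-base stretches of Sult2a2 found in another Sult gene), so their separate values are uncertain, whereas no 50-base stretch of Sult2a7 or Sult2a8 occurs in another Sult gene. Adding up all Sult2a counts gave −1.24 in WT livers (adjusted p = 0.102) and −1.71 in dHSC livers (adjusted p = 0.0413), with a difference of 0.77 between dHep and WT (adjusted p = 0.792).

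**Figure D2:**
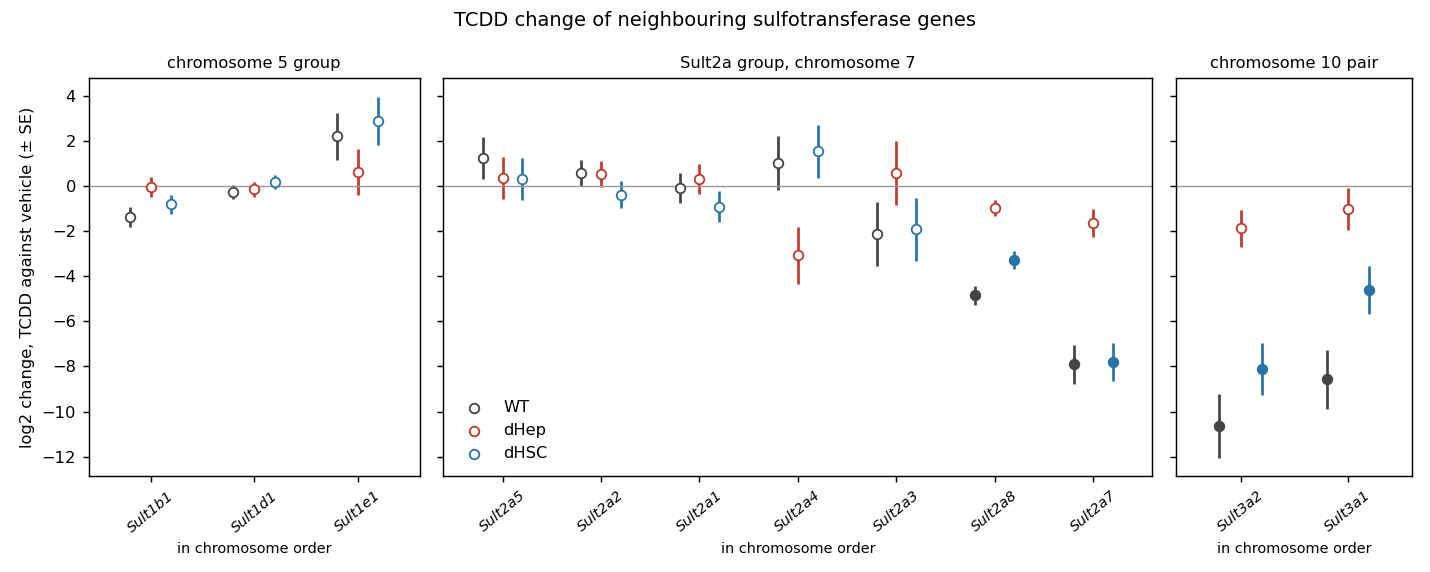
Log2 change, TCDD against vehicle, of tested Sult genes in chromosome order in 3 neighbouring groups, with SE bars. Filled points passed the test and open points did not. On chromosome 7, Sult2a8 (−4.84 in WT) and Sult2a7 (−7.91 in WT) stand far below Sult2a2 (0.60 in WT) and Sult2a1 (−0.08 in WT). The value of Sult2a3 (−2.10 in WT, not called) lies between these pairs. Sult2a6, between Sult2a3 and Sult2a8, was not tested. The order is shown, not the distance.

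Sult1a1 (ENSMUSG00000030711, chromosome 7, 126672865 to 126676432, minus strand) is the main phenol sulfotransferase. It had 157, 202 and 131 CPM in WT TCDD mice 2, 8 and 14, against 439.8, 721 and 555 CPM in WT vehicle mice 1, 7 and 13. Every WT TCDD liver was below every vehicle liver, and the mean was 163 ± 35.8 CPM with TCDD and 572 ± 141.5 CPM with vehicle (SD, n = 3 each), 3.5-fold lower (log2 −1.81 ± 0.31, adjusted p = 0.0024). In dHSC livers the means were 174 ± 59.6 CPM with TCDD and 492 ± 56.3 CPM with vehicle (log2 −1.50 ± 0.31, adjusted p = 0.0137). That call was lost without vehicle mouse 11 (adjusted p = 0.06) or vehicle mouse 17 (adjusted p = 0.0521), and without the 5 libraries that lay apart it was −1.19 (adjusted p = 0.09). In dHep livers the order was turned: Sult1a1 had 574, 709 and 510.5 CPM in TCDD mice 4, 10 and 16, against 437, 296 and 463 CPM in vehicle mice 3, 9 and 15. All 3 dHep TCDD livers were above all 3 vehicle livers, as for 4.56% of all genes, but the change of 0.58 ± 0.30 did not pass (adjusted p = 0.747). A stretch of 61 bases of Sult1a1, 1.7% of its span, overlaps Sgf29 on the other strand, and the library kit named in the labels does not mark strand.

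Sult1c2 (ENSMUSG00000023122, chromosome 17, 53829637 to 53846339, minus strand), another phenol-sulfonating enzyme, had 1.42, 2.11 and 1.41 CPM in WT TCDD livers, against 16.7, 11.2 and 8.15 CPM in WT vehicle livers. The groups were well apart, and the change was −2.87 ± 0.53, 7.30-fold lower (adjusted p = 0.00436). In dHSC livers it had 5.68, 3.16 and 1.003 CPM with TCDD, against 9.42, 13.5 and 15.4 CPM with vehicle. These groups did not overlap either, as for 7.7% of all genes on the lower side, but the change of −1.96 ± 0.51 missed the threshold (adjusted p = 0.0564). It passed without TCDD mouse 6 (−2.60, adjusted p = 0.026), with DESeq2 (0.00404), with a covariate for the share of non-protein-coding counts (0.0297) and with no filter on low counts (0.0455), whereas without the 5 libraries that lay apart it was −1.38 (adjusted p = 0.259). In dHep livers the ranges were 4.59 to 9.17 CPM with TCDD and 7.45 to 17.7 CPM with vehicle (log2 −0.84 ± 0.49, adjusted p = 0.787).

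Sult1b1, Sult1d1 and Sult1e1 lie side by side on chromosome 5. Sult1b1 (ENSMUSG00000029269, 87513339 to 87538195, minus strand), known for sulfonating thyroid hormones, had 8.71 to 22.2 CPM in WT TCDD livers, against 22.5 to 47.9 CPM in WT vehicle livers. The ranges touched without overlapping, as for 11.4% of all genes on the lower side. The change of −1.35 ± 0.44 did not pass (adjusted p = 0.0901), though it did with DESeq2 (adjusted p = 0.0292) and without the 5 libraries that lay apart (adjusted p = 0.0407). It was −0.81 ± 0.44 in dHSC and −0.03 ± 0.43 in dHep livers (adjusted p = 0.509 and 0.994).

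Sult1d1 (ENSMUSG00000029273, 87554645 to 87569027, minus strand), which sulfonates dopamine and other catecholamines, had the smallest change among the 9 tested members in WT livers. It had 229, 329 and 258 CPM in WT TCDD livers, against 253, 422 and 298 CPM in WT vehicle livers, and the groups overlapped in all 3 genotypes. The log2 change was −0.25 ± 0.32 in WT, −0.14 ± 0.32 in dHep and 0.18 ± 0.32 in dHSC livers, with 95% intervals of −0.94 to 0.43, −0.82 to 0.54 and −0.50 to 0.86. The lowest value, 113.6 CPM, was in dHep TCDD mouse 4.

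Sult1e1 (ENSMUSG00000029272, 87575969 to 87591594, minus strand), the estrogen sulfotransferase, was the only tested member with a positive value in WT livers. It had 20.1, 9.97 and 10.6 CPM in WT TCDD mice 2, 8 and 14, against 0.917, 2.24 and 5.51 CPM in WT vehicle mice 1, 7 and 13. The groups did not overlap, as for 13.4% of all genes on the higher side, and the change of 2.23 ± 1.04 did not pass (adjusted p = 0.294). In dHSC livers it had 26.0, 1.43 and 9.46 CPM with TCDD, against 0.724, 4.05 and 0.211 CPM with vehicle, with TCDD mouse 12 below vehicle mouse 11, so that it was not among the 9.61% of all genes whose dHSC groups did not overlap on the higher side (log2 2.90 ± 1.09, adjusted p = 0.24). In dHep livers it had 3.72, 8.98 and 1.36 CPM with TCDD, against 1.42, 1.72 and 5.96 CPM with vehicle (log2 0.64 ± 1.02, adjusted p = 0.939). Its spread within groups was wide, with a coefficient of variation of 42.1 to 125% across the 6 groups, and it was at a low level in all of them.

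Sult5a1 (ENSMUSG00000000739, chromosome 8, 123140192 to 123158315, minus strand) had 0 counts in all 18 libraries. Its whole span lies within Gm20388, a gene model on the other strand that held 11826 counts. All 1290 protein-coding genes lying wholly inside another gene's span had 0 counts in these tables, against 25.3% of 11798 protein-coding genes clear of any other, so the 0 says nothing about the expression of Sult5a1.

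The difference between genotypes was tested directly as the difference of the TCDD changes. Between dHep and WT livers it passed for 5 of 9 genes, all higher in dHep, where 0.351% of all genes were called higher. It was 6.28 ± 0.97 for Sult2a7 (adjusted p = 0.00513), 3.87 ± 0.53 for Sult2a8 (adjusted p = 0.00191), 7.56 ± 1.48 for Sult3a1 (adjusted p = 0.0224) and 2.39 ± 0.43 for Sult1a1 (adjusted p = 0.0144). Sult3a2 passed as well (adjusted p = 0.0179), with a fitted size of 8.78 ± 1.65 that depends on the near absence of counts in WT TCDD livers. Sult1c2 had 2.03 ± 0.71 (adjusted p = 0.338) and Sult1b1 1.32 ± 0.61 (adjusted p = 0.58). For Sult1d1 the difference was 0.11 with an interval of −0.85 to 1.08, and for Sult1e1 −1.59 with an interval of −4.63 to 1.46. Sult2a7 and Sult2a8 kept their calls whichever of the 12 libraries was left out. Sult3a1 lost its call in 8 of 12 cases (adjusted p up to 0.0933), Sult3a2 in 5 of 12 (up to 0.0712) and Sult1a1 in 3 of 12 (up to 0.054).

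Of the 5 libraries that lay apart, 3 were dHep libraries. Without the 5, which left 2 dHep TCDD livers and 1 dHep vehicle liver, the differences were 6.71 for Sult2a7, 4.30 for Sult2a8, 7.39 for Sult3a1, 9.48 for Sult3a2 and 2.36 for Sult1a1. They were of similar size, but none passed (adjusted p = 0.0591, 0.0526, 0.219, 0.149 and 0.0831), so 0 of 9 were called. The lone vehicle liver is assumed there to vary like the other groups.

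Between dHSC and WT livers no gene of the whole table passed with edgeR, where 233 genes had an unadjusted p under 0.05 and DESeq2 called 3. The 9 sulfotransferase values ran from 0.12 to 3.97, but Sult2a7 and Sult1e1 changed sign depending on which mouse was left out. A positive value means a less negative change for the genes that fell, and a larger rise for Sult1e1. Of the 9, 2 had an unadjusted p under 0.05. These were Sult2a8 at 1.57 (interval 0.48 to 2.66, unadjusted p = 0.0075) and Sult3a1 at 3.97 (interval 1.02 to 6.91, unadjusted p = 0.0115). Without dHSC TCDD mouse 12 the Sult3a1 difference was 0.69. DESeq2 called 0 of the 9. For Sult2a7 the difference was 0.12 with an interval of −1.84 to 2.08. Between dHep and dHSC livers Sult2a7 (6.16 ± 0.97, adjusted p = 0.00818) and Sult1a1 (2.09 ± 0.43, adjusted p = 0.0449) passed, where 0.155% of all genes were called higher. Sult3a2 (6.25, adjusted p = 0.0549) and Sult2a8 (2.30, adjusted p = 0.0678) fell just outside. Sult1a1 lost this call whichever library was left out (adjusted p up to 0.158), and Sult3a1, at 3.59 (adjusted p = 0.404), was 6.88 without dHSC TCDD mouse 12 (adjusted p = 0.00454). Without the 5 libraries that lay apart neither call held, at 6.42 for Sult2a7 (adjusted p = 0.135) and 1.74 for Sult1a1 (adjusted p = 0.511). These comparisons share groups with one another.

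**Figure D3:**
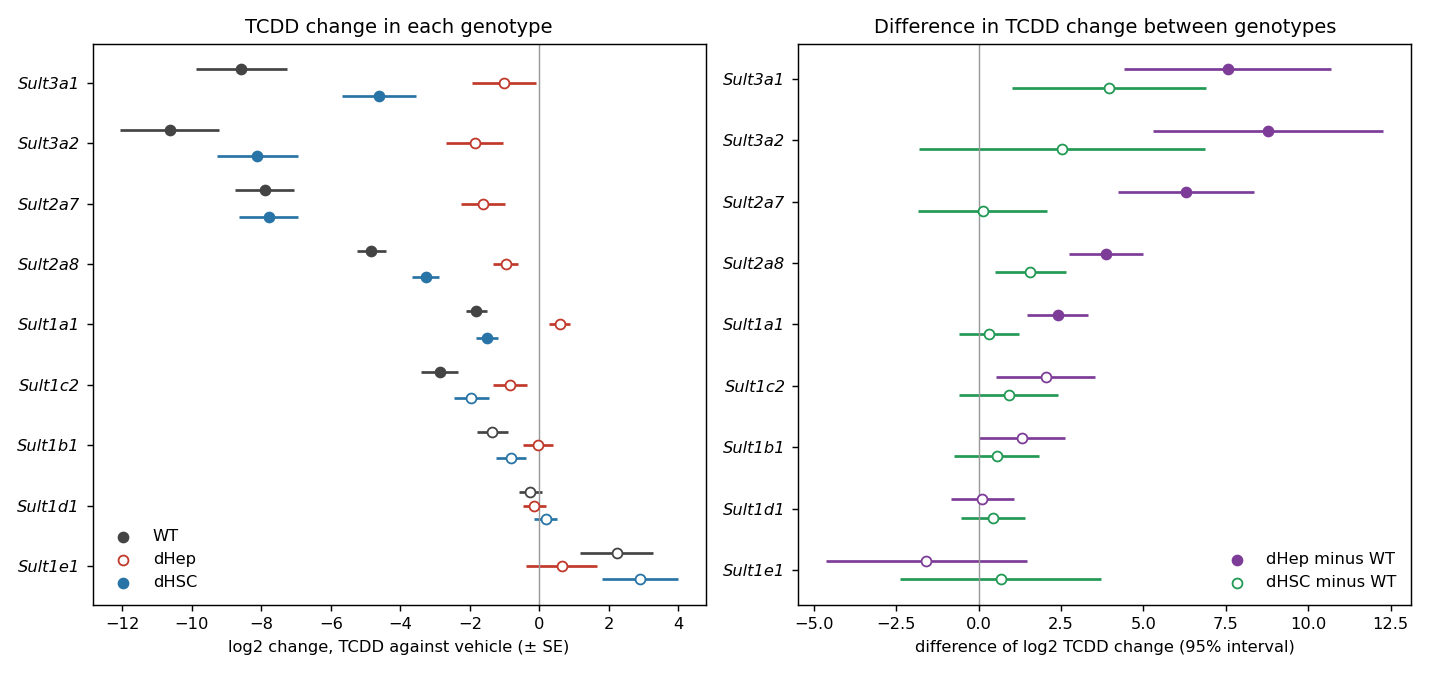
Left, log2 change of each gene with TCDD against vehicle in WT, dHep and dHSC livers, with SE bars. Right, the difference of these changes between genotypes with 95% intervals. Filled points passed the test and open points did not. For Sult3a1, Sult3a2, Sult2a7 and Sult2a8 the WT changes run between −10.64 and −4.84, and the dHep changes between −1.86 and −0.97.

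In vehicle livers neither deletion changed a member past the threshold. The log2 difference of the 9 genes ran between −0.75 and 0.14 for dHep against WT and between −0.82 and 0.51 for dHSC against WT. Neither comparison called any gene of the table with edgeR. At an unadjusted p under 0.05 there were 1025 and 220 genes, 0 of them members, and DESeq2 called 3 and 2 genes, again 0 members. The groups overlapped for all 9 members in both comparisons. Over all genes, dHep and WT vehicle groups did not overlap for 4.58% on the higher and 3.26% on the lower side, and dHSC and WT vehicle groups for 2.24% on the higher and 2.16% on the lower side.

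The level of the family as a whole was read as CPM per kilobase of exon, summed over the 21 genes. Whether reads were counted over exons or over whole gene spans is not given, so these levels and shares are approximate. The 21 include Sult5a1, whose 0 says nothing about its expression. The sum was 1001 ± 315 in WT TCDD and 1930.3 ± 401 in WT vehicle livers, 1376 ± 597 in dHep TCDD and 1425 ± 281 in dHep vehicle livers, and 831 ± 325 in dHSC TCDD and 2115 ± 567 in dHSC vehicle livers (SD, n = 3 each). The WT and dHSC groups did not overlap, and the dHep groups did. The makeup moved with the sum in WT livers: Sult3a1 supplied 0.09% with TCDD and 16.01% with vehicle, Sult2a8 0.87% and 12.4%, and Sult2a7 0.08% and 9.31%, while Sult2a2 supplied 51.4% and 18.2%. Sult1a1 supplied 11.1% of the WT TCDD sum and 19.9% of the WT vehicle sum, and in dHep livers 31.4% with TCDD and 18.6% with vehicle. The Sult2a1 and Sult2a2 shares carry the uncertainty on shared sequence, and the annotated exon length of Sult2a2 is only 741 bases.

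**Figure D4:**
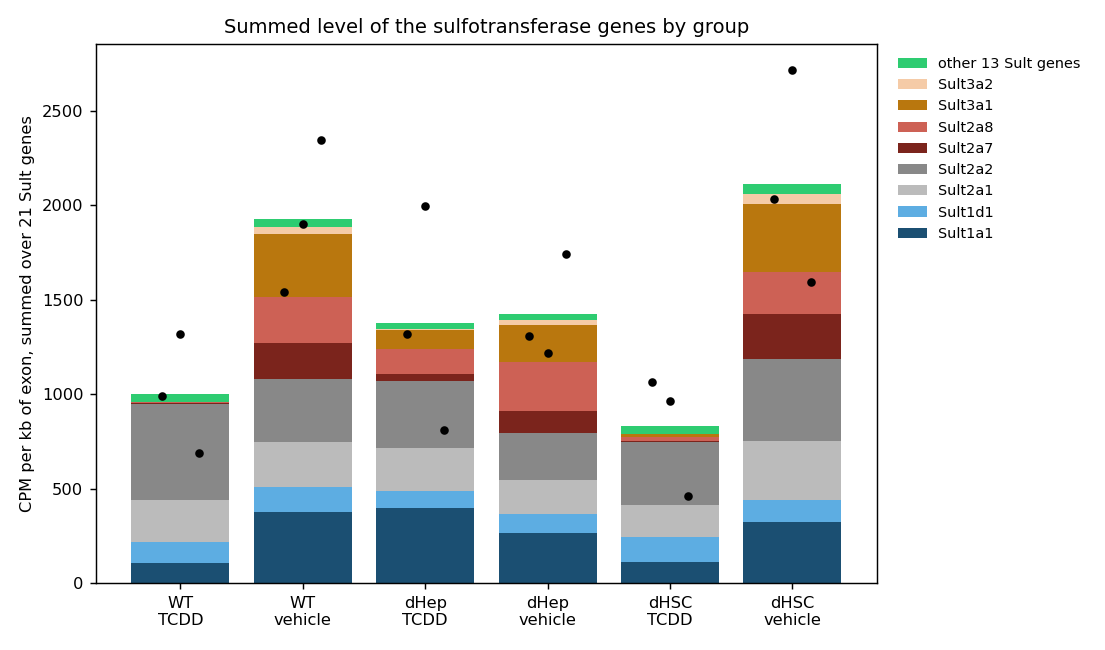
Summed level of the 21 Sult genes in CPM per kilobase of exon, stacked by gene as group means, with black points for single livers. The Sult3a1, Sult2a8 and Sult2a7 parts are a thin band in WT TCDD livers and a large part of the bar in WT vehicle livers, while all 3 remain visible in dHep TCDD livers.

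The genes whose levels followed the members most closely were looked up among 11823 tested genes over the 18 libraries, which share the group structure and the libraries that lie apart, so these values are descriptions. For Sult3a1 they were Car3 (Pearson r 0.944), Susd4 (0.939), Hs3st3b1, Cyp2c69 and Lifr (0.936 each). For Sult2a8 they were Car3 (0.978), Ces3a (0.967), Ces3b (0.966), Pla1a (0.965) and Fras1 (0.964). For Sult1e1 the closest were Chil1 (0.764), Runx3 (0.742), Ppbp (0.738), Clec4a2 (0.726) and Saa2 (0.714). Among the members themselves r was 0.981 between Sult2a7 and Sult3a2, 0.959 between Sult3a1 and Sult3a2 and 0.953 between Sult2a7 and Sult2a8. Sult1d1 and Sult1e1 stood outside this. For Sult1d1 r ran between −0.07 and 0.21 against the other 8, and for Sult1e1 between −0.653 (Sult3a1) and −0.307 (Sult1b1) against the 7 members other than Sult1d1.

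A list of PAPS synthases, sulfate and PAPS transporters, phosphatases of the spent donor, sulfatases, their activator and sulfite oxidase had 11 tested genes. In the main fit Papss2 alone was called, lower in WT livers (−1.31 ± 0.28, adjusted p = 0.0104), where 1.95% of all genes were called lower. Without the 5 libraries that lay apart Suox was called lower in WT livers too. DESeq2 called 1 of the 11 in dHSC livers, beside 732 genes in all. The Papss2 change was −0.98 in dHSC (adjusted p = 0.0828) and −0.34 in dHep livers (adjusted p = 0.862), and its difference between dHep and WT was 0.98 (adjusted p = 0.472). The list's median was −0.21 in WT, 0.02 in dHep and −0.14 in dHSC livers.

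Among 17 genes known for higher levels in female than male mouse liver, 10 fell with TCDD in WT livers, 5 in dHSC livers and 0 in dHep livers (1 at an unadjusted p under 0.05, 0 by DESeq2). Over all genes 1.95% were called lower in WT, 0.843% in dHSC and 0.0404% in dHep livers, so the 0 there is not particular to this list. The medians were −2.64 in WT, −2.02 in dHSC and 0.02 in dHep livers. Examples in WT livers were Cyp3a16 at −8.56, Cyp2c69 at −5.28 and Cyp17a1, a steroid hydroxylase and lyase, at −2.64. The difference between dHep and WT passed for 5 of the 17 (Cyp17a1, Cyp2c69, Fmo2, Ntrk2 and Slc22a26), all higher in dHep, where 0.351% of all genes were called higher. Without the 5 libraries that lay apart edgeR called 3 of the 17 in dHSC livers (Cyp17a1, Ntrk2 and Slc22a26) and 0 for the difference between dHep and WT (11 at an unadjusted p under 0.05). Of 10 tested genes known for higher levels in males, Cyp2d9 (2.91) and Gstp1 (1.94) rose and Slco1a1 (−3.45) and Mup7 (−4.80) fell in WT livers, while in dHSC livers Cyp2d9 rose (2.41) and Mup7 fell (−6.44). Without the 5 libraries Cyp2d9 kept its dHSC call (3.19, adjusted p = 0.0332) and Mup7 did not (−5.13, adjusted p = 0.132). None of these 10 passed in dHep livers (3 at an unadjusted p under 0.05, 0 by DESeq2), where 0.0674% of all genes were called in either direction. That share was 5.38% in WT and 2.55% in dHSC livers.

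Of 13 genes of the growth hormone axis, Ghr, the growth hormone receptor, fell by 1.48 on the log2 scale and Socs2, a feedback inhibitor induced by it, fell by 1.95 in WT livers, while Socs3, an inhibitor induced by cytokines, rose by 1.54. None of the 13 passed in dHep livers (2 at an unadjusted p under 0.05, 0 by DESeq2) or dHSC livers (4 and 2). Beside this list and the next ones, 5.38% of all genes were called in WT, 2.55% in dHSC and 0.0674% in dHep livers. Of 13 receptors and transcription factors known to act on Sult genes, Nfe2l2, a factor of the oxidative stress response, rose (1.53) in WT livers. None passed in dHep livers (3 at an unadjusted p under 0.05, 0 by DESeq2) or dHSC livers (2 and 1), although Nfe2l2 was called higher in dHSC livers without the 5 libraries. Of 11 tested UDP-glucuronosyltransferases, enzymes of another conjugation route, Ugt2b37 fell in WT (−2.97) and dHSC livers (−3.53; −3.11 with adjusted p = 0.0826 without the 5 libraries), and none passed in dHep livers (0 at an unadjusted p under 0.05, 0 by DESeq2). Without the 5 libraries 4 of the 11 were called lower and 1 higher in WT livers.

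Markers of other cells moved with TCDD as well. Beside them, 3.43% of all genes were called higher and 1.95% lower in WT livers. In dHSC livers 1.71% were called higher and 0.843% lower, and in dHep livers 0.0674% in either direction. The 5 neutrophil markers summed to 69.7 to 89.3 CPM in WT TCDD and 2.41 to 5.45 CPM in WT vehicle livers, 12.7 to 30.3 CPM in dHep TCDD and 6.33 to 23.1 CPM in dHep vehicle livers, and 11.9 to 149 CPM in dHSC TCDD and 3.85 to 9.92 CPM in dHSC vehicle livers, with 4 of 4 tested called higher in WT and 3 of 4 in dHSC livers. The highest dHSC TCDD sum was in mouse 18, one of the 5 libraries that lay apart, and the other two were 16.7 and 11.9 CPM. Without the 5 libraries 1 of 4 was called in dHSC livers (S100a8). Of them, Ly6g was at 0 in dHSC vehicle livers. The 6 cholangiocyte markers summed to 222 to 288 CPM in WT TCDD and 60.9 to 72.6 CPM in WT vehicle livers, with 3 of 6 called higher and none at 0, 113 to 250.1 CPM in dHep TCDD and 76.7 to 194 CPM in dHep vehicle livers, and 137 to 188 CPM in dHSC TCDD and 51.7 to 100.4 CPM in dHSC vehicle livers. Of the 8 hepatocyte markers tested, edgeR called none with TCDD in WT livers (1 at an unadjusted p under 0.05, 1 by DESeq2), and none in dHep or dHSC livers (0 and 0 in each), although the summed ranges in WT livers, given above, did not overlap. They were 79775 to 109470 CPM in dHep TCDD and 73966 to 168480 CPM in dHep vehicle livers, and 58199 to 95414 CPM in dHSC TCDD and 83319 to 105120 CPM in dHSC vehicle livers. Of the other lists, in WT livers 2 of 6 stellate and myofibroblast, 1 of 6 macrophage and 2 of 3 B and T cell markers tested were called higher, and 1 of 4 endothelial, 1 of 1 skeletal muscle and 1 of 1 pancreas markers lower. In dHSC livers 2 of 3 B and T cell markers were called higher and 1 of 1 pancreas markers lower, and without the 5 libraries edgeR called 0 of these (2 and 1 at an unadjusted p under 0.05). In WT livers the same removal brought 2 of 8 hepatocyte markers, Apoa1 and Cps1, to a lower call. Skeletal muscle markers reached 1114 CPM in WT vehicle mouse 1, which also had the lowest Sult3a1, Sult3a2, Sult2a7 and Sult2a8 of the WT vehicle livers. Without that mouse all 6 WT calls held. Apart from that, the part of these shifts in the sulfotransferase results was not tested.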

How the data were processed

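Gene counts of 18 mouse livers were used as deposited by the authors, as whole reads per Ensembl gene with no normalization. Per the submitters' processing notes, FastQC 0.11.9, HISAT2 2.1.0, HTSeq 0.11.3, DESeq2 1.22.2 and GRCm38 were used; the counting settings are not given in the sources used here. Per the labels' protocols, libraries were poly-T selected from samples of RIN above 6.8. Replicates are separately numbered mice; beyond the numbers nothing describes them, so p-values measure the spread between these samples.

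All 55536 identifiers matched GENCODE M21. Libraries of 12706490 to 27240877 counts entered one edgeR 4.0.16 quasi-likelihood fit (R 4.3.3, limma 3.58.1) with a mean per group, TMM scaling, filterByExpr and Benjamini-Hochberg adjustment over 14835 genes at 0.05. Intervals of counts, at 95%, cover counting error only. The SE of each log2 change was derived from the change and its F statistic, and the 95% intervals from that SE. Both are approximate, above all where a group holds few counts. The fit and its calls were tested on simulated data. Named genes were the 10 listed, Ahr and Cyp1a1 as checks, members of 7 gene lists that passed the test, and the 5 genes closest in pattern to each of 3 members. Members, lists and markers were chosen with earlier results of these data known. Alternatives were RLE scaling, no filter, a filter of 1 CPM in 3 libraries, only the groups compared, DESeq2 1.42.0, a covariate or removal for libraries with over 2% of counts outside protein-coding genes, summed near-copies, and leaving out each mouse. One result of the list of regulators is not reported here.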

Additional observations from a re-analysis of the deposited data

Results flagged for a closer look

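The TCDD response differed between dHep and WT livers by a test of the difference itself for Sult2a8 (log2 difference 3.87), Sult2a7 (6.28), Sult1a1 (2.39), Sult3a2 (8.78) and Sult3a1 (7.56). In each case the dHep change was the less negative one, and for Sult1a1 it was positive. Between dHep and dHSC livers the response differed for Sult2a7 (6.16) and Sult1a1 (2.09). The 2 comparisons share the dHep livers, and none of the 7 differences passed without the 5 libraries that lay apart.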

How the results depend on the processing

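Of 9 tested genes, the calls with TCDD were 6 in WT livers, and the 6 named genes held whichever WT mouse was left out (adjusted p up to 0.0294). The 5 calls in dHSC livers were 3 with only the groups compared, 3 without the 5 libraries that lay apart, 6 with DESeq2, and 3 to 5 with 1 mouse left out. The 5 calls of dHep against WT were 0 without the 5 libraries and 2 to 5 with 1 mouse left out. The 2 calls of dHep against dHSC were 1 with only the groups compared, 0 without the 5 libraries, 4 with DESeq2, and 1 to 2 with 1 mouse left out. Removing the 5 libraries leaves fewer samples, and otherwise the cause was not tested. With 1 mouse left out, values that were not called changed sign for Sult1b1 in dHep (−0.38 to 0.15), Sult1d1 in dHep (−0.40 to 0.18), Sult1e1 in dHep (−0.22 to 1.58), Sult1d1 in dHep minus WT (−0.14 to 0.44), Sult1e1 in dHSC minus WT (−0.54 to 2.40), Sult2a7 in dHSC minus WT (−0.33 to 0.57) and Sult1d1 in dHep minus dHSC (−0.57 to 0.0122). Of the 18 values of the 2 vehicle comparisons, 14 changed sign under at least 1 alternative, and 0 were called under any. Summing the Sult2a counts gave −0.47 in dHSC minus WT, of other sign than Sult2a7 and Sult2a8. Totals of 1 count in WT TCDD and 9 in dHSC TCDD livers limit how well the size of the Sult3a2 change is known. The gene lists and markers were also counted without the 5 libraries, which was chosen after seeing the data. No paired or blocked analysis was made, as each mouse number occurs once and no label names sets of mice. Of the 5 libraries that lay apart, all but dHep vehicle mouse 9 were numbered 15 to 18. The part of sample order in the results was not tested.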
